A study of Arabidopsis thaliana with 18 samples.

Results

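Heat shock proteins are chaperones that bind unfolded proteins, and plants keep a set of them at low level in warm-grown tissue and make much more when proteins are damaged. Heat shock transcription factors (HSFs) switch these genes on by binding heat shock elements, which are inverted repeats of the unit nGAAn. Under heat the constitutive HSFA1 factors act first and the heat-induced factor HSFA2 then prolongs the response. HSP70 proteins fold clients, HSP101 pulls proteins out of aggregates, HSP90 matures signalling proteins, ROF2 is a peptidyl-prolyl isomerase that partners HSP90, and the small heat shock proteins hold unfolded clients.

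The genes described here are 7 Arabidopsis heat shock genes, HSFA2 and 6 chaperone genes, which were chosen by name after earlier results of these same data had shown heat shock genes at lower levels in jasmonate-treated seedlings. Of the 7, 6 were listed in the deposited tables of 22209 genes: HSFA2, HSP70-4, HSP101, ROF2 (also called FKBP65), HSP17.4 and HSP17.6II. HSP90.1 was not listed and is not analysed here. All 6 listed genes passed the filter for testing (in 3 or more libraries, an FPKM, a fragment count scaled by gene length and library size, of 1 or more), as did 17835 genes in all. HSFA2 and HSP17.6II passed through the groups in which they were high. Because their levels chose them, the values of the 6 genes are given as a description, with no test.

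RNA was sequenced from whole 6-day-old seedlings of 2 genotypes, Col-0 (wild type) and the ecap-2 mutant, grown on 1/2 MS plates at 22 °C under 16 h light and 8 h dark. Both genotypes were either untreated (0 h) or kept for 1 or 3 h on plates with 50 µM jasmonic acid (JA), a hormone of wound and defence responses, giving 6 groups of 3 libraries. The study asked how ECAP, an adaptor between JAZ repressors and a co-repressor, bears on responses to JA. No heat was applied. No seedlings moved to plates without JA for 1 or 3 h were among the 6 groups. JA, the move between plates and the hour of the day cannot be told apart. Nothing in the labels ties the replicates to separate cultures, and the errors and p-values cover the spread among the libraries alone, which may be technical. Whole seedlings mix organs, and fewer cells of a type and less RNA per cell cannot be told apart.

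AT3G58110, taken as ECAP, was lower in ecap-2 by 2.14 ± 0.07 (log2 change ± SE) at 0 h, with a limma adjusted p of 8.6e-12. Total FPKM per library ran from 687996 to 912834, and the 3 highest totals, from 853858, were those of ecap-2 at 3 h. Read depth is not given, and steps in the lowest FPKM values put it at 0.739 to 1.27 times that of the second wild type library of 3 h. Values under about 1 FPKM, near the filter limit, were taken as the least precise, a limit not derived from that relative depth. Summed FPKM of the 3 listed shoot markers ran from 19436 to 35124, that of the 8 root markers from 2206 to 5130 and that of 5 seed markers from 0.807 to 42.4. PYK10 alone averaged 2116 FPKM at 0 h and 3982 FPKM at 3 h in wild type and so set most of the root sum. Of 7 tested root markers at 3 h, PYK10 rose and 4 fell in wild type (median log2 change −0.47), and PYK10 rose and 2 fell in ecap-2 (median 0.06). Of all tested genes 20.1% fell and 21.4% rose in wild type at 3 h, and 22.2% and 23.1% in ecap-2. The part of these markers in the changes below was not tested.

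To see which of the genes carry the letters that HSFs bind, the bases before each coding start were read from the TAIR10.1 genome. The motifs searched were a pair of adjoining units (GAANNTTC or TTCNNGAA) and a run of 3 units (GAANNTTCNNGAA or TTCNNGAANNTTC), which together cover both strands; a run holds overlapping pairs. In the 500 bases before the coding start, 5 of the 6 listed genes held a pair, against 33.9% of 27443 protein-coding genes, and 3 held a run of 3 units, against 1.20% of those genes. ROF2 held neither in this window. In the shorter window of 250 bases before the annotated gene start, HSFA2 and HSP17.4 held matches, against shares of 16.1% for a pair and 0.386% for a run. The longer window was added after the shorter one had been read. The stretches below show the sites with 5 bases on each side, the matched units in capitals, 5′ to 3′ on the gene's strand; they are letters that match, not measured binding sites.
HSP70-4: ctcgtGAACGTTCTCGAAagctc
HSFA2: gtaacGAAGTTTCTGGAAcattg
HSFA2: tcaaaGAAGCTTCaatac
HSP17.4: acataGAAGCTTCTTGAAgccac
HSP17.4: aacctGAAATTTCAAGAAacttg
HSP17.6II: gacgtTTCTCGAAcaata
HSP101: taagcGAAAATTCcacgt

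These sites lie at chr3:3993849-3993871 (minus strand) for HSP70-4, at chr2:11135531-11135553 and chr2:11135586-11135603 (plus strand) for HSFA2, and at chr3:16984949-16984971 and chr3:16984868-16984890 (minus strand) for HSP17.4. The HSP17.6II site is at chr5:3883041-3883058 and the HSP101 site at chr1:27940328-27940345, both on the minus strand. The sites of HSFA2 and HSP17.4 shown here precede the annotated gene start, whereas those of HSP70-4, HSP17.6II and HSP101 lie inside the annotated gene before its coding start. HSFA2 held a further pair at each of 2 places inside the annotated gene, not shown. The 250 bases before the start of HSP17.4 (chr3:16984868-16985117, minus strand) are printed whole because both of its runs fall in them.
HSP17.4: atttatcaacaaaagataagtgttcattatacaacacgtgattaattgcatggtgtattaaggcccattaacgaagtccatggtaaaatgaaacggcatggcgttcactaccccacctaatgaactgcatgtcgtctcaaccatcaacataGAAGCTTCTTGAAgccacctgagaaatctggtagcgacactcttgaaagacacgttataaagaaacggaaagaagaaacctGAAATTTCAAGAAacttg

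Over the wider heat shock network of 77 other genes, 71 were listed. In the 250 bases before the gene start 20 of these (28.2%) held a pair and 5 (7.04%) a run of 3 units, and in the 500 bases before the coding start 52 (73.2%) and 16 (22.5%). By family, a run in the longer window was found in 6 of 12 listed HSP70 genes, 4 of 20 HSFs, 3 of 15 small heat shock proteins, 3 of 16 co-chaperones and other heat-induced genes and 0 of 8 HSP90 and HSP100 genes. In the shorter window it was found in 0 of 12, 2 of 20, 1 of 15, 2 of 16 and 0 of 8.

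HSFA2, the heat-induced activator, had its highest level before treatment and its lowest after 3 h in both genotypes. HSFA2 (AT2G26150, chromosome 2, 11135624 to 11137792, plus strand, 4 transcripts) was at 5.40, 6.94 and 8.99 FPKM in the untreated wild type libraries, at 2.21, 2.81 and 1.45 FPKM at 1 h and at 0.396, 0.452 and 0.364 FPKM at 3 h. The 3 groups did not overlap, and the mean went from 7.11 ± 1.80 FPKM (SD, n = 3) at 0 h to 0.404 ± 0.0448 FPKM at 3 h. In ecap-2 it was at 3.29, 2.88 and 6.22 FPKM at 0 h, 1.45, 1.55 and 1.23 FPKM at 1 h and 0.335, 0.222 and 0.613 FPKM at 3 h. Again no group overlapped another of the same genotype, and the 3 h mean was 10.6-fold below that at 0 h. On the log2(FPKM + 1) scale, which understates changes of low genes, the change from 0 to 3 h was −2.51 ± 0.21 in wild type and −1.84 ± 0.21 in ecap-2 (± SE, n = 3 libraries a group). In the order of the 6 group means, wild type and ecap-2 overlapped at 0 h, at 1 h and at 3 h, and each time was apart from the next.

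HSP70-4, a cytosolic heat-inducible HSP70, was the most abundant of the 6 per length and was far lower at 3 h in both genotypes. HSP70-4 (AT3G12580, annotated as HSP70, chromosome 3, 3991117 to 3993886, minus strand, 2 exons) was at 157, 206 and 160 FPKM at 0 h in wild type, 90.8, 77.2 and 50.6 FPKM at 1 h and 8.18, 10.6 and 8.79 FPKM at 3 h. Every library of a later time lay below every library of the earlier one, and the 3 h mean of 9.20 ± 1.27 FPKM (SD, n = 3) was 19-fold below the 0 h mean of 174.4 ± 27.5 FPKM. In ecap-2 it was at 110.3, 145.5 and 118.5 FPKM at 0 h, 122.6, 94.5 and 66.7 FPKM at 1 h and 11.7, 13.5 and 12.2 FPKM at 3 h. The ecap-2 libraries of 0 and 1 h overlapped, and those of 3 h lay far below both, with a mean of 12.5 ± 0.889 FPKM against 124.8 ± 18.4 FPKM at 0 h. The log2 change at 1 h was −1.28 ± 0.22 in wild type and −0.43 ± 0.22 in ecap-2, and at 3 h it was −4.10 ± 0.22 and −3.22 ± 0.22. Its 6 group means ran from wild type at 0 h through ecap-2 at 0 h, ecap-2 at 1 h and wild type at 1 h to ecap-2 and then wild type at 3 h. The libraries of ecap-2 at 0 h overlapped those of ecap-2 at 1 h, which overlapped those of wild type at 1 h; other neighbours in that order were apart.

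HSP101, the disaggregase of the cytosol, took the same course with a smaller span. HSP101 (AT1G74310, chromosome 1, 27936508 to 27940369, minus strand) was at 14.6, 15.9 and 14.6 FPKM at 0 h in wild type, 9.17, 8.38 and 6.59 FPKM at 1 h and 3.50, 4.07 and 3.63 FPKM at 3 h. In ecap-2 the values were 14.5, 15.0 and 15.2 FPKM at 0 h, 13.8, 10.9 and 7.83 FPKM at 1 h and 4.64, 4.68 and 4.66 FPKM at 3 h. Within each genotype the 3 times did not overlap. The 3 h mean was 4.02-fold below 0 h in wild type and 3.21-fold below in ecap-2. At 0 h the genotypes overlapped, and at 3 h each ecap-2 library lay above each wild type library.

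ROF2, the isomerase that partners HSP90, followed another course, with its highest mean at 1 h. ROF2 (AT5G48570, chromosome 5, 19690461 to 19693845, minus strand, 13 exons) was at 16.0, 26.4 and 20.6 FPKM at 0 h in wild type, 31.6, 27.3 and 18.7 FPKM at 1 h and 3.30, 3.81 and 3.48 FPKM at 3 h. In ecap-2 it was at 9.17, 17.5 and 14.3 FPKM at 0 h, 36.0, 26.4 and 24.6 FPKM at 1 h and 3.12, 2.92 and 3.30 FPKM at 3 h. The 0 and 1 h libraries overlapped in wild type and lay apart in ecap-2, where the 1 h mean was 2.12-fold higher. Both genotypes were far lower at 3 h, 5.94-fold below 0 h in wild type and 4.38-fold in ecap-2. From 1 to 3 h the mean was 7.32-fold lower in wild type and 9.31-fold lower in ecap-2.

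**Figure D1:**
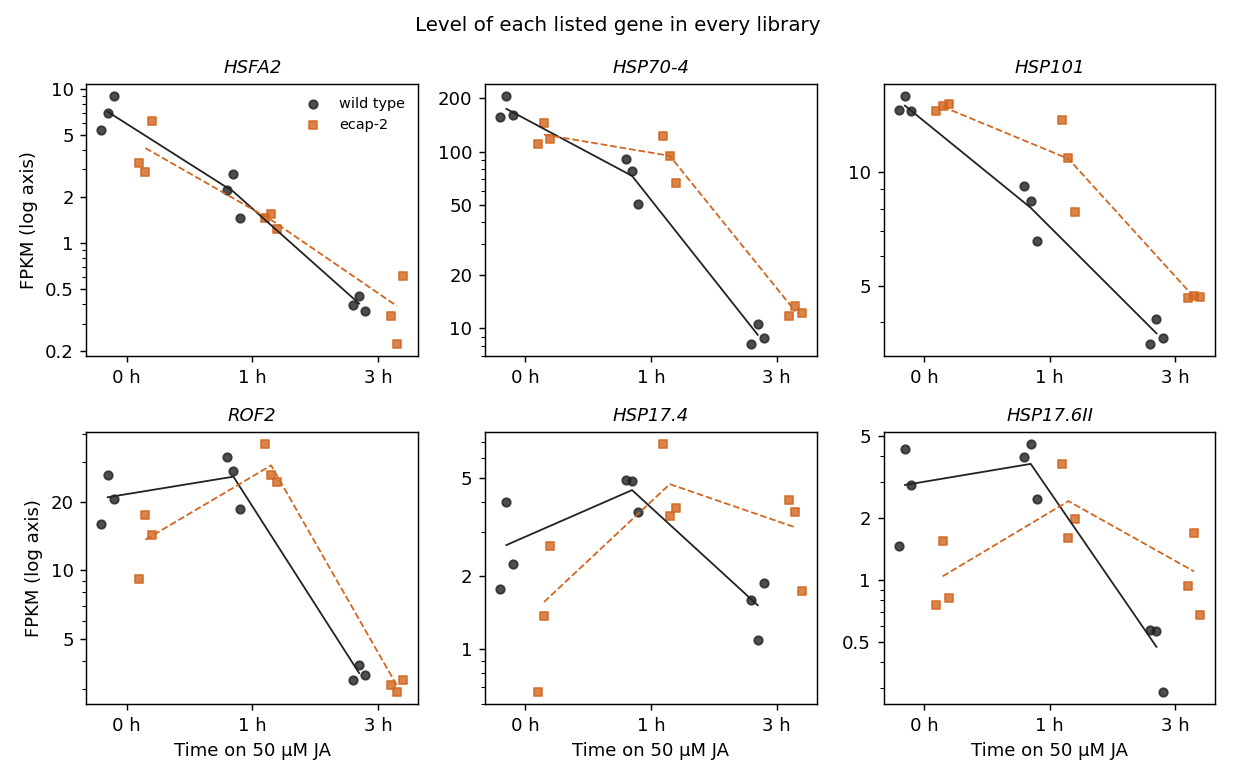
FPKM (log axis) of the 6 listed genes against time on JA, 1 point per library, with lines through the means of 3 libraries for wild type (circles, solid) and ecap-2 (squares, dashed). HSFA2, HSP70-4 and HSP101 were lower at each later time, whereas ROF2, HSP17.4 and HSP17.6II had their highest mean at 1 h.

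The small heat shock proteins HSP17.4 and HSP17.6II had low levels, with group means of at most 4.72 and 3.65 FPKM. HSP17.4, of cytosolic class I (AT3G46230, chromosome 3, 16984118 to 16984867, minus strand, 1 exon), was at 1.77, 3.99 and 2.24 FPKM at 0 h in wild type, 4.89, 4.88 and 3.62 FPKM at 1 h and 1.59, 1.095 and 1.86 FPKM at 3 h. In ecap-2 it was at 0.672, 1.36 and 2.65 FPKM at 0 h, 6.87, 3.51 and 3.78 FPKM at 1 h and 4.06, 3.64 and 1.73 FPKM at 3 h. Untreated and 3 h libraries overlapped in both genotypes, while the 1 h libraries of ecap-2 all exceeded its 0 h libraries. At 3 h the log2 change from 0 h was −0.51 ± 0.31 in wild type and 0.72 ± 0.31 in ecap-2. All neighbours in the order of its 6 group means overlapped.

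HSP17.6II, of cytosolic class II (AT5G12020, chromosome 5, 3882231 to 3883111, minus strand, 1 exon), was at 1.47, 4.31 and 2.90 FPKM at 0 h in wild type, 3.92, 4.56 and 2.48 FPKM at 1 h and 0.571, 0.569 and 0.288 FPKM at 3 h. The wild type libraries of 3 h lay below all others of that genotype, with a mean 6.07-fold below that of 0 h. In ecap-2 it was at 0.758, 1.55 and 0.823 FPKM at 0 h, 3.66, 1.598 and 1.99 FPKM at 1 h and 0.936, 1.69 and 0.679 FPKM at 3 h. There the 1 h libraries lay above those of 0 h, and the 0 and 3 h libraries overlapped. Its genomic neighbour HSP17.6A (AT5G12030), of the same class, changed by −0.87 ± 0.30 at 3 h in wild type with a limma adjusted p of 0.029, a call that 4 of the alternatives ended (adjusted p from 0.0085 to 0.16 over those tried). Close relatives among the small heat shock proteins, the cytosolic HSP70s and HSP90s can share reads, and how the authors' counting divided them is not given in the sources used here, so their separate levels are uncertain.

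Seen together, the 6 genes were lower at 3 h than at 1 h in both genotypes. Their median log2 change from 0 h in wild type was −0.27 at 1 h and −2.01 at 3 h; for ecap-2 these were 0.14 and −1.64, while the medians over all 17835 tested genes lay between −0.01 and 0.01. The ecap-2 median at 1 h turned to −0.03 with a pseudocount of 5, to −0.43 with genes of mean FPKM of at least 5 alone and to −0.08 without ecap-2 1 h replicate 1, so it has no settled direction. From 1 to 3 h the medians were −1.39 in wild type and −0.92 in ecap-2. In wild type at 1 h, HSFA2, HSP70-4 and HSP101 lay wholly below their 0 h libraries (background 20.6% of tested genes), and at 3 h so did 5 of 6 (background 25.8%), all but HSP17.4. Between 1 and 3 h in wild type all 6 lay apart and lower (background 22.1%). In ecap-2 at 1 h, ROF2, HSP17.4 and HSP17.6II lay above their 0 h libraries (background 22.4%), and HSFA2 and HSP101 lay wholly below theirs (background 23.5%). At 3 h HSFA2, HSP70-4, HSP101 and ROF2 lay below their 0 h libraries (background 25.6%) and below their 1 h libraries (background 26.3%). Since these comparisons chose the genes, nothing is read from the counts, and comparisons of 1 h and of 3 h with 0 h share the untreated libraries.

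**Figure D2:**
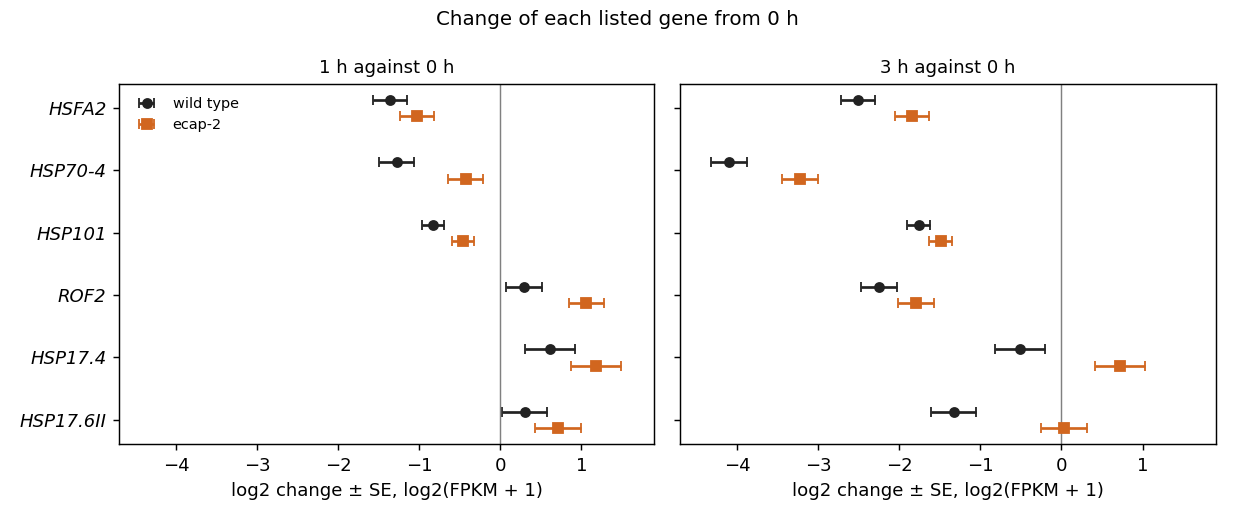
Log2 change ± SE from 0 h to 1 h and to 3 h (x axis, log2(FPKM + 1) scale) of the 6 listed genes in wild type (circles) and ecap-2 (squares), 3 libraries a group. At 3 h HSP70-4 stood at −4.10 in wild type and −3.22 in ecap-2, while HSP17.4 lay at −0.51 and 0.72.

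Over the 6 group means, which share libraries with every comparison above, HSP70-4 and HSP101 ran most alike (Pearson r 0.98, and 0.97 over the 18 libraries), and HSFA2 ran with HSP101 (0.92) and HSP70-4 (0.91). The small heat shock protein HSP17.4 ran least like them, with r of 0.22 to HSP70-4, 0.06 to HSP101 and −0.07 to HSFA2, and most like HSP17.6II (0.78).

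Before treatment 5 of the 6 genes had lower values in ecap-2 than in wild type, and HSP101 was level. The fitted differences ran from −0.01 ± 0.14 for HSP101 and −0.48 ± 0.22 for HSP70-4 to −0.69 ± 0.21 for HSFA2 and −0.88 ± 0.28 for HSP17.6II, with a median of −0.57. Only the libraries of HSP70-4 lay apart at 0 h (background 26.1%). At 1 h the median was 0.10, or −0.11 without ecap-2 1 h replicate 1, and none of the 6 lay apart as higher (background 22.6%) or lower (background 27.6%). At 3 h the median was 0.33. HSP70-4 (0.40 ± 0.22), HSP101 (0.26 ± 0.14) and HSP17.6II (0.49 ± 0.28) then lay above the wild type libraries (background 33.8%) and ROF2 (−0.14 ± 0.22) below (background 33.2%). When libraries were rescaled to a common total FPKM, the median of all tested genes in this comparison moved from 0.01 to −0.20, HSP70-4 stood at 0.19 and HSP101 at 0.07. HSFA2 was −0.02 ± 0.21 at 3 h.

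**Figure D3:**
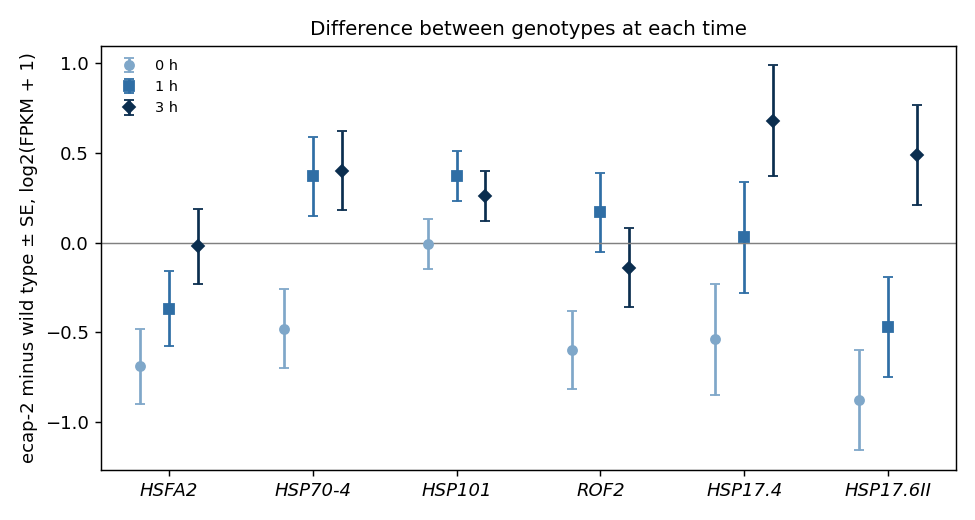
Difference between genotypes (y axis, ecap-2 minus wild type ± SE, log2(FPKM + 1)) of the 6 listed genes at 0, 1 and 3 h, 3 libraries a group. All 6 values at 0 h are at or below 0, from −0.01 to −0.88, and 4 of the 6 at 3 h are above 0.

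The change from 0 h was less negative or more positive in ecap-2 for each of the 6 genes. The difference of responses (ecap-2 change minus wild type change) at 1 h was 0.85 ± 0.31 for HSP70-4 and 0.77 ± 0.32 for ROF2, and the other 4 genes ranged from 0.33 for HSFA2 to 0.57 for HSP17.4. At 3 h it was 0.88 ± 0.31 for HSP70-4, 0.67 ± 0.30 for HSFA2 and 1.37 ± 0.40 for HSP17.6II, with medians of 0.49 at 1 h and 0.78 at 3 h. Both rest on the same untreated libraries, in which 5 of the 6 genes had lower values in ecap-2.

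The other genes of the heat shock network are not among the chosen genes and were tested over all 17835 genes with limma. Earlier results of these data had shown heat shock genes at lower levels, so the counts below are no independent check of the 6. The 77 genes come from lists drawn up with earlier results of these data known: 58 were tested, 13 fell under the filter and 6 were not listed. The 13 under the filter include the heat-induced HSP21, ATHSP22.0, APX2 and HSFA7B, whose highest values in any library were 0.138, 0.234, 0.188 and 0.315 FPKM. In wild type at 1 h 25 of 58 fell (background 16.7%) and 8 rose (background 17.3%), with a median of −0.18 against 0.01 over all tested genes. At 3 h 30 fell (background 20.1%) and 12 rose (background 21.4%), with a median of −0.43. From 1 to 3 h 27 fell (background 14.5%) and 7 rose (background 14.5%). In ecap-2 at 1 h 16 fell (background 17.0%) and 8 rose (background 16.6%), and at 3 h 30 fell (background 22.2%) and 14 rose (background 23.1%), with medians of −0.08 and −0.24 (all tested genes −0.01 at both times). From 1 to 3 h in ecap-2 27 fell (background 19.7%) and 8 rose (background 20.9%). On a common total, which moved the median of all tested genes from 0.01 to −0.15, 33 fell and 2 rose. On that scale 47.1% of all tested genes were called in either direction, and the share in each direction is not given.

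Of 11 tested HSP70 genes, 8 fell and 2 rose at 3 h in each genotype (of all tested genes 20.1% fell and 21.4% rose in wild type; for ecap-2 the shares were 22.2% and 23.1%). Those that fell include HSC70-1, a constitutive cytosolic member, and the family members HSP70-2 and AT3G09440. HSC70-1, at 1193 FPKM in untreated wild type the most abundant of these per length, was 2.36-fold lower at 3 h in wild type (−1.24 ± 0.08, limma adjusted p 1.1e-09). HSP70-2 was at 25.9, 29.4 and 25.6 FPKM at 0 h and at 3.66, 3.88 and 3.14 FPKM at 3 h in wild type, with no overlap (−2.62 ± 0.12, limma adjusted p 1.3e-11). AT3G09440 changed by −1.94 ± 0.13 (limma adjusted p 3.9e-09). The chloroplast members cpHSC70-1 and cpHSC70-2 and the mitochondrial mtHSC70-2 fell by less, by 0.37, 1.02 and 0.80 on the log2 scale. AT4G16660, another HSP70 family gene, rose in both genotypes, by 0.69 ± 0.08 in wild type (limma adjusted p 2.4e-06). HSP70B, another heat-induced cytosolic gene, had group means from 2.26 to 2.95 FPKM.

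The HSP90 and HSP100 list gave 5 falls of 8 at 3 h in wild type and no rise, and in ecap-2 5 falls and 1 rise (of all tested genes 20.1% fell in wild type and 22.2% in ecap-2). The cytosolic HSP90.3 was at 292.3, 310.2 and 256.2 FPKM at 0 h and 76.4, 90.8 and 80.9 FPKM at 3 h in wild type, 3.46-fold lower (−1.78 ± 0.09, limma adjusted p 6.1e-11). HSP90.6 of mitochondria (−1.03), HSP90.5 of chloroplasts (−0.51) and the organelle disaggregases CLPB3 (−0.74) and CLPB4 (−0.86) also fell. Of 14 tested co-chaperones and other heat-induced genes, 8 fell, 4 rose and 2 were not called at 3 h in wild type (of all tested genes 20.1% fell and 21.4% rose), and 8 fell and 3 rose in ecap-2. HOP1, an HSP90 co-chaperone, was among the 2 not called (33.9 and 33.1 FPKM). HOP3, which joins HSP70 to HSP90, changed by −2.34 ± 0.19 (limma adjusted p 7.3e-08), SGT1A, an HSP90 co-chaperone, by −1.49 ± 0.09 (5.9e-10), and FES1A, which stabilises cytosolic HSP70, by −1.43 ± 0.12 (4.6e-08). MBF1C, a heat-induced transcriptional co-activator, was already 1.93 ± 0.28 lower at 1 h (limma adjusted p 7.9e-05). Of the 4 genes of this list that rose, GOLS1, a galactinol synthase of raffinose synthesis, changed by 1.63 ± 0.14 (1.2e-07), from 11.7 ± 2.16 to 38.0 ± 2.38 FPKM (SD, n = 3), and BAG6 and DREB2A by 0.87 and 0.83.

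Among 15 tested HSFs at 3 h in wild type 4 fell and 3 rose, shares near those of all tested genes (20.1% and 21.4%), and in ecap-2 5 fell and 6 rose (22.2% and 23.1%). HSFA7A, a heat-induced class A factor, was at 8.67, 16.4 and 19.6 FPKM at 0 h and 1.99, 2.37 and 3.45 FPKM at 1 h in wild type (−2.09 ± 0.33, limma adjusted p 0.00014), and the class B repressors HSFB2A and HSFB2B fell by 0.64 and 1.28 at that time. HSFB1, another class B factor, rose at 1 h in both genotypes, by 1.17 ± 0.12 in wild type (7.9e-07) and 1.49 ± 0.12 in ecap-2 (3.7e-08, limma adjusted p values). HSFA1B, one of the constitutive HSFA1 factors, rose by 0.94 ± 0.10 at 3 h in wild type (limma adjusted p 8.8e-07). HSFA1A, HSFA1D and HSFA1E did not pass the test there.

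Among 10 tested small heat shock proteins 5 fell and 3 rose at 3 h in wild type, and 4 fell and 2 rose in ecap-2. Of all tested genes 20.1% fell and 21.4% rose in wild type; for ecap-2 the shares were 22.2% and 23.1%, so the rises are near the background. AT5G51440, annotated as an HSP20-like chaperone, was at 22.9, 23.95 and 23.9 FPKM at 0 h and 2.98, 3.38 and 2.39 FPKM at 3 h in wild type (−2.66 ± 0.15, limma adjusted p 3.8e-10), and AT1G59860, another, changed by −1.70 ± 0.22 (9.9e-06). AT4G21870, also of this family, rose by 0.53 ± 0.12 (0.0019). The rises of AT2G29500, another HSP20-like gene, and HSP18.2 at 3 h in wild type had limma adjusted p values of 0.040 and 0.036 and were lost under 7 and 6 of the alternatives, with adjusted p from 0.018 to 0.17 and from 0.0024 to 0.15.

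**Figure D4:**
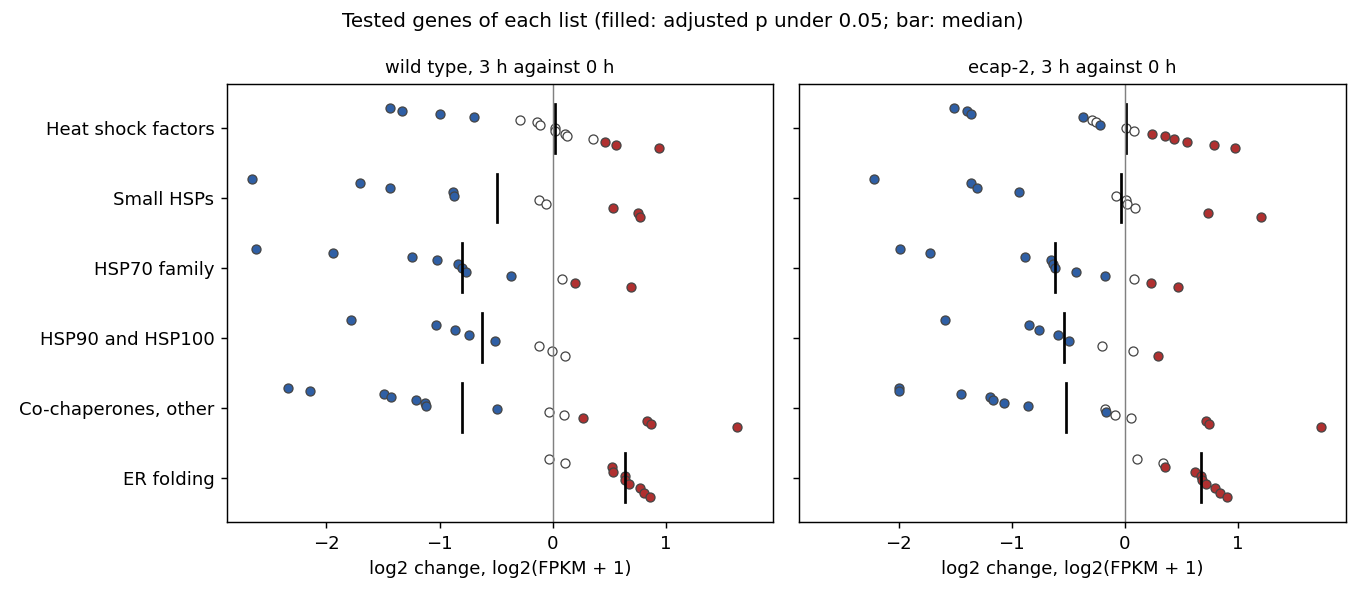
Log2 change from 0 to 3 h (x axis, log2(FPKM + 1)) of each tested gene of 6 lists in wild type and ecap-2, 3 libraries a group; filled points have a limma adjusted p under 0.05 (red higher, blue lower) and black bars are list medians. The median lies below 0 for the HSP70 (−0.80 in wild type), HSP90 and HSP100 (−0.63) and co-chaperone (−0.81) lists and above 0 for endoplasmic reticulum folding genes (0.64).

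Chaperones of the endoplasmic reticulum (ER), which serve secreted proteins and answer to other regulators, were mostly higher after treatment. Of 10 tested ER genes 7 rose at 1 h and 8 at 3 h in wild type (17.3% and 21.4% of all tested genes rose). In ecap-2 the counts were 9 and 8 (16.6% and 23.1%), and none fell from 0 h in either genotype, with medians of 0.42, 0.64, 0.52 and 0.68. BIP1, the ER HSP70, was at 93.2, 86.9 and 79.8 FPKM at 0 h and 134.7, 138.0 and 134.0 FPKM at 3 h in wild type (0.64 ± 0.08, limma adjusted p 2.7e-06). CRT1A, a lectin chaperone, rose by 0.81 ± 0.07 (7.9e-08) and ERDJ3B, an ER co-chaperone of BIP, by 0.77 ± 0.08 (4.1e-07, limma adjusted p values).

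Of 9 genes of high light and oxidative stress, some of which HSFs also control, 4 fell and 1 rose at 3 h in wild type (20.1% and 21.4% of all tested genes) and 3 fell and 3 rose in ecap-2 (22.2% and 23.1%), with medians of −0.07 and 0.21. At 1 h 3 fell and 4 rose in wild type (median 0.26), and 4 fell and 3 rose in ecap-2 (median −0.03). Of all tested genes 16.7% fell and 17.3% rose in wild type at 1 h, and 17.0% and 16.6% in ecap-2. ELIP2, an early light-induced protein, was at 696.9, 690.5 and 710.8 FPKM at 0 h and 59.0, 58.4 and 43.4 FPKM at 3 h (−3.70 ± 0.16, limma adjusted p 1.8e-11), and CAT2, a peroxisomal catalase, changed by −1.52 ± 0.08 (7.9e-11). ELIP1, a relative of ELIP2, changed by −2.49 ± 0.25 (1.5e-06). The summed FPKM of this list, to which APX1, ELIP1, ELIP2 and CAT2 contribute much, was 2605 to 2684 at 0 h and 1122 to 1217 at 3 h in wild type. In ecap-2 it was 2147 to 2489 and 1362 to 1693. Unlike ELIP1, ELIP2 and CAT2, APX1 stayed high, with means of 687.6 FPKM at 0 h and 656.1 FPKM at 3 h in wild type. Its means in ecap-2 were 738.2 and 987.5 FPKM. The sum was lower at 3 h, as HSP70-4 was, while the list's calls went both ways; its part was not tested.

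Between genotypes most counts in the network were near the background, apart from the genes higher in ecap-2 at 0 h, which were fewer. At 0 h more genes were lower than higher under each scaling, whereas at 1 and 3 h the direction depended on the scaling. At 0 h 14 of 58 were lower in ecap-2 (background 23.0%) and 5 higher (background 21.2%). On a common total, which moved the median of all tested genes to −0.11, the split was 20 and 3. With quantile normalization it was 16 and 6. At 1 h 11 were lower (background 21.9%) and 12 higher (background 17.9%). The split became 15 and 5 on a common total, with an all-gene median of −0.10, and 10 and 9 with quantile normalization. At 3 h 12 were lower (background 28.6%) and 15 higher (background 28.8%). Here a common total gave 24 and 4, with an all-gene median of −0.20, and quantile normalization 15 and 14. The backgrounds belong to the reported fit. On a common total 45.8%, 42.4% and 59.7% of all tested genes were called in either direction at 0, 1 and 3 h. Their share in each direction is not given, so the network's splits on that scale cannot be set against it. HSFA1A was lower in ecap-2 at each time, by 0.63 ± 0.12 at 0 h, 0.46 ± 0.12 at 1 h and 0.82 ± 0.12 at 3 h (limma adjusted p 0.00046, 0.0053 and 2.2e-05). The organelle HSP90.5 and HSP90.6 were also lower at each time, by 0.55 and 0.71 at 3 h. AT2G19310, an HSP20-like gene, was higher at each time, by 0.64, 0.80 and 0.72. HSP70-2 was 0.85 ± 0.12 lower at 0 h (limma adjusted p 2.7e-05) and 0.66 ± 0.12 lower at 1 h (0.00033).

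The calls in the difference of responses were near the background in the network. At 1 h limma called none of the 58 genes as higher (background 0.168%) or lower (background 0.146%) in the difference of responses, and 8 of 58 had an unadjusted p under 0.05, against 7.82% of all tested genes. At 3 h it called 1 as higher (background 1.30%), the chloroplast HSP70 cpHSC70-2, and none as lower (background 1.13%), and 12 of 58 had an unadjusted p under 0.05, against 19.1% of all tested genes. The direction depended on the scaling. On a common total, which moved the median of all tested genes from 0.01 to −0.09, 0 were called higher and 1 lower. On that scale 4.35% of all tested genes were called in either direction. With quantile normalization 2 were called higher and 1 lower. The share of all tested genes called at 3 h, 2.42% in both directions, ran from 0.73% without ecap-2 3 h replicate 2 to 7.09% without ecap-2 0 h replicate 1. The cpHSC70-2 levels were 293.5, 329.1 and 293.5 FPKM at 0 h and 149.3, 155.3 and 144.9 FPKM at 3 h in wild type, and 211.3, 225.2 and 211.7 FPKM and 135.2, 139.7 and 139.3 FPKM in ecap-2. Its difference of 0.38 was lost in 18 of the alternatives, with limma adjusted p from 0.031 to 0.14 against 0.049.

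The genes whose group means ran most like the mean scaled course of the 6 were sought among 3830 other genes with a highest group mean of at least 5 FPKM and a range of at least 1 on the log2 scale. The 10 most alike had Pearson r from 0.951 to 0.985 over the 6 group means. First came AT5G20790 (r 0.985, 0.90 over the 18 libraries), and HOP3 (0.972) and AT5G51440 (0.968) of the heat shock network came next. Of the 3830 genes searched, 25 belonged to that network, whose lists were drawn up with earlier results of these data known. The others were AT5G12100, PAP17 (an acid phosphatase), XTR6, BETA-OHASE 2 (a β-carotene hydroxylase), AT3G54510, AT1G60590 and AT2G41060. AT5G12100 went from 47.7 ± 3.35 FPKM at 0 h to 8.12 ± 0.644 FPKM at 3 h in wild type and from 33.3 ± 3.20 to 6.88 ± 0.653 FPKM in ecap-2 (SD, n = 3). The likeness is a description over few points.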

How the data were processed

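RNA-seq of 18 libraries (6 groups of 3) was analysed from the per-library FPKM tables that the authors deposited. FPKM is normalized for length and depth. TopHat2 and Cufflinks, with the TAIR10 build, are listed in the submitters' processing notes; their order, versions and strand setting are not given in the sources used here, and read depth is unknown. Loci were matched to names with the TAIR10.1 annotation (22122 of 22209), and motif windows were read from that genome.

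Values were taken as log2(FPKM + 1), with no further scaling. Genes with at least 1 FPKM in at least 3 libraries (17835, or 80.3%) were fitted in limma 3.58.1 (R 4.3.3), with 1 mean per group over all 18 libraries (12 residual degrees of freedom), moderated variances and Benjamini-Hochberg adjustment over all tested genes at 0.05, for 11 comparisons. Tables were handled with Python 3.11.15, pandas 2.3.3 and numpy 2.4.6. The fit was tested on simulated data.

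The 7 members and all gene lists were chosen with earlier results of these data known. Members are described by level, log2 change and SE. Any network gene could be named beside its family's counts, from other lists up to 3 genes of smallest p a comparison, ECAP as the check of the mutant, and the 10 genes most like the members' mean scaled course. The alternatives tried were 8 settings and leaving out each of 18 libraries.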

Additional observations from a re-analysis of the deposited data

Results flagged for a closer look

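The difference of responses of cpHSC70-2, a chloroplast HSP70, was 0.38 ± 0.10 at 3 h (log2, ecap-2 change minus wild type change; limma adjusted p 0.049): it fell by 1.02 in wild type and by 0.64 in ecap-2, and 18 of the alternatives ended the call.

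HSP17.4 had changes of opposite sign at 3 h, −0.51 ± 0.31 in wild type and 0.72 ± 0.31 in ecap-2. All 3 wild type libraries lay below the wild type mean of 0 h and all 3 ecap-2 libraries above the ecap-2 mean of 0 h, but the 0 and 3 h libraries overlapped in both genotypes. The difference of 1.23 ± 0.44 on the log2 scale was not tested, since HSP17.4 was chosen from these data.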

How the results depend on the processing

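Of 1683 recomputed values of single members, 1633 moved by less than 1 SD and 50 by more. Those 50 were 28 with a pseudocount of 5, 17 with 0.1, 4 with a library left out and 1 on a common total. Of the values further than 1 SD from 0 in the reported fit, 0 turned the other way. Changes of sign among values nearer 0 were not counted. The member median in wild type at 3 h was −2.40 with a pseudocount of 0.1 and −1.18 with 5, and in ecap-2 at 3 h −0.89 with 5, against −2.01 and −1.64. With genes of mean FPKM of at least 5 alone, which drops low members, the 1 h median was −0.83 in wild type and −0.43 in ecap-2, where it was also −0.03 with a pseudocount of 5 and −0.08 without ecap-2 1 h replicate 1. The count of network genes called in the difference of responses at 3 h, 1 in the reported fit, was 0 with a pseudocount of 0.1 and with no filter, 2 with a pseudocount of 5, with a mean of at least 5 and with only the compared libraries, and 3 with quantile normalization; leaving out 1 library gave 0 to 5, with 5 without wild type 1 h replicate 2 and without ecap-2 0 h replicate 1; the cause was not tested. The count between genotypes at 1 h ran from 15 (without ecap-2 1 h replicate 1) to 23. With the replicate number as a block the 3 h difference count was 3. The numbers were not taken to pair the samples, since every same-number correlation of deviations was over 0.1 in only 2 of 15 pairs of groups. Those were wild type 0 h with wild type 1 h and wild type 0 h with ecap-2 1 h. As a hint from the data towards pairing, the median was 0.0799 for same numbers and −0.03 for other numbers, and 13 of 18 libraries were closest to their own number. At 1 h HSP70-4, HSP101 and ROF2 were also lower at each higher replicate number in both genotypes. HSFA2, HSP17.4 and HSP17.6II were not so in both. At 0 h the network genes HSFA7A, MBF1C and HSFB2B ran the other way, higher at each higher replicate number in both genotypes. How many genes ran either way was not counted, and the part of this in their changes from 0 h was not tested. Values under about 1 FPKM were taken as the least precise, with read depth unknown.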
